A study of Rattus norvegicus with 8 samples.

Results

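The calpain system of neurons captured from the CA3 field of the rat hippocampus is described here through 4 genes. Capn1 and Capn2 encode the large catalytic subunits of the proteases µ-calpain and m-calpain, Capns1 encodes the small regulatory subunit that both proteases share, and Cast encodes calpastatin, their endogenous inhibitor. Members were all probes besides controls whose gene name in the array files is any of these symbols, with Capn4 accepted as an older symbol of Capns1. The rule found 7 probes of the 41012 on each array, which carry 18365 distinct gene names in all. Capn1 had 1 probe, Capn2 had 2, Capns1 had 1 and Cast had 3.

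RNA was measured on 8 single-colour Agilent arrays, 2 for each of 4 groups of male Sprague-Dawley rats, with a time of 24 h given for all of them. Surviving neurons were Fluoro-Jade-negative and dying neurons Fluoro-Jade-positive cells of rats with a moderate fluid percussion brain injury, Fluoro-Jade being a fluorescent stain of degenerating neurons. Sham neurons came from rats with a sham injury and naïve neurons from rats with no treatment. Each sample of the injured groups was a pool of about 600 neurons taken by laser from several rats, and fate was assigned from the stain at the time of collection. Surviving neurons were taken from beside dying ones, so the pools of both injured groups can hold neurons of the same rats, and which pools share rats is not given in the sources used here. The study calls these pools biological replicates and also speaks of hybridization in duplicate, so that it is not certain that the 2 arrays of a group hold separate pools. RNA was amplified before labelling, with either of 2 kits by the sample records and with 1 of these kits by the methods of the study, and neither source says which kit each pool had.

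Values are log2 of the background-corrected signal of a probe divided by the median of its array, so that 0 is the median probe. Naïve arrays had 22445 and 22390 probes well above background, sham arrays 20910 and 20191, surviving arrays 29345 and 27079, and dying arrays 24057 and 27995. Before scaling, the median signal was 19.2 in dying replicate 1 and 52.6 in dying replicate 2. Dying replicates also stood further apart than those of the other groups. Over probes well above background on both arrays, their log2 differences had an SD of 1.18, where surviving replicates had 0.68, sham replicates 0.54 and naïve replicates 0.74. The injured groups shared slide 1 and the control groups slide 2, which was read with another version of the extraction protocol. Injury, slide and protocol version thus cannot be told apart wherever injured neurons are set against sham. In pools of captured cells, fewer cells of a type and less RNA per cell also cannot be told apart.

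Calpains are cysteine proteases of the cytosol that are activated by calcium and cut their targets at a limited number of sites, so that a target can change its function without being degraded. In neurons they act on the cytoskeleton, on receptors and on signalling proteins, and they are well known from excitotoxic, ischemic and traumatic injury, in which calcium enters the cell. Calpastatin binds the active protease and blocks it, and activity is set largely at the protein level, which arrays of RNA do not measure.

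Both probes of Capn2, the probe of Capns1 and 1 probe of Cast (A_44_P421539) were lower than sham in both groups of injured neurons under the division by the array median, although Capn2 A_44_P313283 was higher in dying neurons under 4 of 6 other treatments of the arrays, so the promoters of these genes are shown. They are RefSeq sequences of assembly GRCr8, from 250 bases before to 50 bases after the start of the gene, 5′ to 3′ on the strand of the gene, and 3 of the 4 members had an entry. Capitals mark matches on either strand to the TATA box TATAAA, the CCAAT box, the GC box GGGCGG, the AP-1 motif TGACTCA or the CRE motif TGACGTCA, a set chosen after the sequences had been seen. No matches overlap. On the other strand the CCAAT box reads ATTGG, the GC box reads CCGCCC and the AP-1 motif reads TGAGTCA.
Capn2 (chr13:96732576-96732875, minus strand): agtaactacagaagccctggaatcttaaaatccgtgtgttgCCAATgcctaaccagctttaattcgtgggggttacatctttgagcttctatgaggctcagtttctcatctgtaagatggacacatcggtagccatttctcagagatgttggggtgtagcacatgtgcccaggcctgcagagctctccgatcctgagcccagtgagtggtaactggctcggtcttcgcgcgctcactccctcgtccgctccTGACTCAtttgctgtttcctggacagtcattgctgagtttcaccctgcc
Capns1 (chr1:94582172-94582471, minus strand): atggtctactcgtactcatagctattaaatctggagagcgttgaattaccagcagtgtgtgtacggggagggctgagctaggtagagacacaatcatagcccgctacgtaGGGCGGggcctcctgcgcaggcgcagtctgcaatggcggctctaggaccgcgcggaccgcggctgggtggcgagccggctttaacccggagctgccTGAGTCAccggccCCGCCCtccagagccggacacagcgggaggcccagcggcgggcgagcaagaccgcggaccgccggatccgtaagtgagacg
Cast (chr2:5816937-5817236, minus strand): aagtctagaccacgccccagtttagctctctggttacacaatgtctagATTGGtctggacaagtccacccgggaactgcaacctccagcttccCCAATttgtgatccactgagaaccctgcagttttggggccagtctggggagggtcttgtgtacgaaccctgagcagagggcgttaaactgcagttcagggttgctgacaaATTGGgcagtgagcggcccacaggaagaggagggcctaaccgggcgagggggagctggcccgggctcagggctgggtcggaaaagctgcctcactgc
The window of Capn2 held 1 match to CCAAT and 1 to TGACTCA. The window of Capns1 held 2 matches to GGGCGG and 1 to TGACTCA, and that of Cast held 3 matches to CCAAT. The AP-1 motif was found in 4.63% of 33469 promoters of this length, the GC box in 33.1%, the CCAAT box in 37.5%, the TATA box in 14.2% and the CRE motif in 1.83%. These 3 windows hold neither of the last named pair. GC content was 51.7% for Capn2, 64.7% for Capns1 and 58.3% for Cast, beside a median of 51.7% over all promoters.

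The catalytic subunit Capn1 was not measured by its probe. A_44_P217533 was well above background on 0 of the 8 arrays. Its log2 values were -0.86 and -2.89 on naïve, -2.42 and -2.22 on sham, -4.02 and -3.72 on surviving and -2.50 and -4.04 on dying arrays. They are values of background, highest on naïve replicate 1, and no difference between groups is given for this gene.

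Capn2, the other catalytic subunit, was well above background on all 8 arrays with both of its probes. On the log2 scale of A_44_P313283, the brighter and therefore the reference probe, naïve arrays stood at 5.86 and 5.92, sham arrays at 6.48 and 6.28, surviving arrays at 5.13 and 4.96 and dying arrays at 5.72 and 5.86. Both arrays of surviving neurons were the lowest of the 8, and they did not overlap with those of any other group. The dying arrays lay below both sham arrays and next to the naïve arrays. In order from the top, the means were 6.38 ± 0.15 (SD, n = 2) for sham, 5.89 ± 0.04 for naïve, 5.79 ± 0.10 for dying and 5.05 ± 0.12 for surviving neurons. The neighbours naïve and dying met at 5.86, and their difference was not tested.

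With A_44_P160550, the other Capn2 probe, naïve arrays stood at 4.09 and 3.97, sham arrays at 3.92 and 4.21, surviving arrays at 2.80 and 1.82 and dying arrays at 3.53 and 2.53. All 4 arrays of injured rats were below all 4 control arrays, and surviving and dying neurons overlapped. Sham and naïve overlapped as well, with means of 4.07 ± 0.20 and 4.03 ± 0.09 (SD, n = 2), and the means of dying and surviving neurons were 3.03 ± 0.71 and 2.31 ± 0.69. The dying neurons were apart from naïve neurons with this probe and next to them with A_44_P313283.

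The Capn2 signal of surviving neurons differed from that of sham by -1.33 (SE 0.41) with A_44_P313283 and by -1.76 (SE 0.54) with A_44_P160550, at limma adjusted p-values of 0.0568 and 0.0570, so neither passed the threshold of 0.05. Both passed without either dying array (0.0310 and 0.0277), in a fit of these 4 arrays alone (0.0199 and 0.0222) or with each signal raised to at least the lowest one marked well above background on its array (0.0436 and 0.0461), and their adjusted p-values ranged from 0.0199 to 0.995 and from 0.0222 to 0.947 over settings other than left-out arrays. The former also passed when only probes well above background on all 4 arrays were tested (0.0487). Against dying neurons, surviving neurons differed by -0.75 (SE 0.42, adjusted p = 0.336) and -0.72 (SE 0.54, adjusted p = 0.477). Dying neurons differed from sham by -0.59 (SE 0.41, adjusted p = 0.266) and -1.04 (SE 0.54, adjusted p = 0.144). The difference of A_44_P160550 between surviving and dying neurons was -0.22 without dying replicate 1, -1.22 without dying replicate 2, -1.21 without surviving replicate 1 and -0.23 without surviving replicate 2, and that between dying neurons and sham was -0.54 without dying replicate 2. Both probes had the same sign in these 3 comparisons under the division by the array median. Between sham and naïve the differences were 0.49 and 0.04, with adjusted p-values of 0.889 and 0.987, and the latter was negative under 5 of 6 other treatments of the arrays, to -0.38 with the probes measured on all 8 arrays, and without naïve replicate 2 (-0.03) or sham replicate 2 (-0.11).

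Capns1, the regulatory subunit needed by both proteases, was well above background on all 8 arrays. For probe A_44_P440450, naïve arrays stood at 6.15 and 6.85, sham arrays at 7.06 and 6.69, surviving arrays at 5.89 and 4.86 and dying arrays at 2.82 and 4.76 on the log2 scale. On the scale of the array median the 4 control arrays were the highest, the surviving arrays came next and the dying arrays were the lowest. These 3 tiers did not overlap on that scale, while sham and naïve overlapped. Distances from sham depended on the scale, and that of surviving neurons came as near to 0 as -0.34 under other settings. The gap between surviving replicate 2 and dying replicate 2 was narrow, and dying replicate 1 was far below every other array. The means were 6.87 ± 0.26 (SD, n = 2) in sham, 6.50 ± 0.49 in naïve, 5.37 ± 0.72 in surviving and 3.79 ± 1.38 in dying neurons.

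Capns1 fell in dying neurons against sham by 3.08 on the log2 scale (SE 0.71, adjusted p = 0.0111), an 8.48-fold lower mean, with both dying arrays below both sham arrays. The call was lost with quantile normalization (-2.00, adjusted p = 0.0789) and with normexp background correction (-2.58, adjusted p = 0.521), and adjusted p-values ranged from 0.00521 to 0.521 over settings other than left-out arrays. Surviving neurons differed from sham by -1.50 (SE 0.71, adjusted p = 0.166), and surviving from dying neurons by 1.58 (SE 0.71, adjusted p = 0.246), and neither passed. The former was -0.99 without surviving replicate 2 and passed in a fit of the 4 arrays compared alone (adjusted p = 0.0380). Over settings other than left-out arrays it ran from -1.50 to -0.34, with limma adjusted p-values from 0.0380 to 0.995. Without dying replicate 1, the difference between dying neurons and sham was -2.11 (adjusted p = 0.0468), and that between surviving and dying neurons was 0.61 (adjusted p = 0.711). Without dying replicate 2 the latter was 2.56 (adjusted p = 0.0322). Leaving out sham replicate 1 or 2 ended the call against sham, at adjusted p-values of 0.0798 and 0.0504. Sham and naïve differed by 0.37 (SE 0.70, adjusted p = 0.910), and by -0.05 and -0.07 with the probes measured on all 8 arrays and with quantile normalization.

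The inhibitor gene Cast was read by 3 probes to the same transcript, and they did not give the same picture. A_44_P412159 was well above background on 0 of the 8 arrays, with log2 values from -4.45 to -2.12, and gives no difference between groups. A_44_P421539 was well above background on every array but dying replicate 1. With it, naïve arrays stood at 0.55 and 0.30, sham arrays at 1.58 and 1.70, surviving arrays at -0.49 and -0.27 and dying arrays at -3.61 and -0.34. Sham was the highest group and naïve came next without overlap. Surviving neurons and dying replicate 2 lay together below naïve, and dying replicate 1 was not measured by this probe. The means were 1.64 ± 0.09 (SD, n = 2) for sham, 0.42 ± 0.18 for naïve, -0.38 ± 0.15 for surviving and, with the background value of replicate 1 included, -1.97 ± 2.31 for dying neurons.

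With A_44_P421547, the reference probe of Cast by its mean over the arrays, naïve arrays stood at -0.21 and 0.66, sham arrays at 0.89 and -0.91, surviving arrays at 0.53 and -0.13 and dying arrays at -2.29 and 1.58. It was not well above background on sham replicate 2 and dying replicate 1. The highest and the lowest value both came from dying neurons, and all 4 groups overlapped. This probe was not tested between dying and sham neurons, since neither group had it well above background on both arrays.

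With A_44_P421539, Cast fell in dying neurons against sham by at least 2.49 on the scale of the array median, the difference with signals raised to the lowest one well above background (adjusted p = 0.00403). With dying replicate 1 at its background value the difference was -3.61 (SE 0.91, adjusted p = 0.0156), whose size is therefore not known. Without dying replicate 1 this difference was -1.98 (adjusted p = 0.0228). Without sham replicate 1 or 2 it was no longer called, at adjusted p-values of 0.0805 and 0.0721. Nor was it called with the 75th percentile (adjusted p = 0.0534), the median of probes measured on all 8 arrays (0.0692) or normexp (-0.68, adjusted p = 0.519), in a range of 0.00403 to 0.519 over settings other than left-out arrays. Surviving neurons differed from sham by -2.02 (SE 0.92, adjusted p = 0.152), with both surviving arrays below both sham arrays, and this passed without either dying array (adjusted p = 0.0106), with the 4 arrays alone (0.00701) or with raised signals (0.0205), in a range of 0.00701 to 0.505 over settings other than left-out arrays. Against dying neurons the difference of surviving neurons was 1.59 (SE 0.92, adjusted p = 0.353) and 0.47 with raised signals. It was -0.04 (adjusted p = 0.981) without dying replicate 1, the array that did not measure the probe. Without dying replicate 2 no measured dying array is left for this probe. With A_44_P421547 surviving neurons differed from dying neurons by 0.56 (SE 1.18, adjusted p = 0.820) and from sham by 0.21 (SE 1.18, adjusted p = 0.911). The former was -1.37 without dying replicate 1, and the latter was -0.69 without sham replicate 2, -0.12 without surviving replicate 1 and -0.17 with raised signals, while the former was 0.09 with raised signals. With normexp the differences of the 2 probes between surviving and dying neurons were -0.02 and -0.35.

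**Figure D1:**
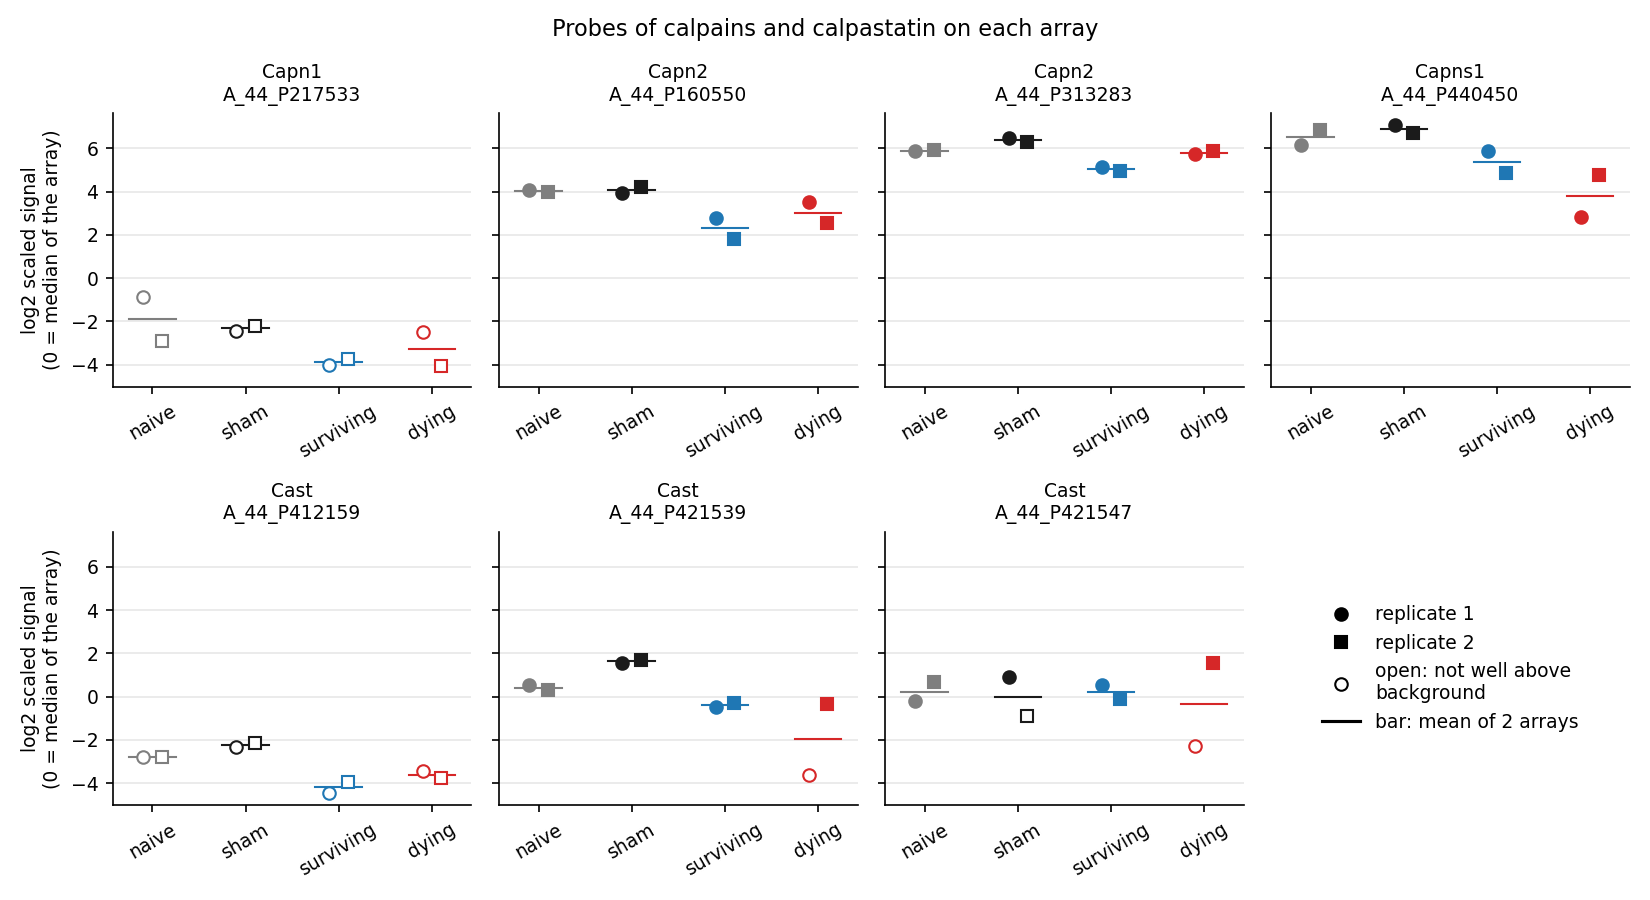
Log2 scaled signal (0 is the median of the array) of the 7 probes of Capn1, Capn2, Capns1 and Cast on each of the 8 arrays, with circles for replicate 1, squares for replicate 2, bars for the mean of the 2 arrays of a group and open symbols where the probe was not well above background. Capns1 descends from 6.87 in sham to 5.37 in surviving and 3.79 in dying neurons, while the reference probe of Capn2, A_44_P313283, is lowest in surviving neurons at 5.05.

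Set against the whole array, the member probes were counted as follows. Between surviving and dying neurons, 5 of the 7 member probes could be tested and 0 were called by limma at an adjusted p under 0.05, beside 0 of all 27206 probes tested (0%). Limma's unadjusted p was under 0.05 for 0 member probes and 5860 of all. Without dying replicate 2 Capns1 was among 5993 probes called, as was Cast A_44_P421539, for which only the dying array at background is then left, and 0 member probes were called without any other single array. Both surviving arrays were above both dying arrays for 1 of the 5 member probes, Capns1, against 30.2% of all probes, and below them for 1, Capn2 A_44_P313283, against 21.9%. These shares are near the background.

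Between surviving neurons and sham, 0 of 5 member probes were called and 2 had an unadjusted p under 0.05, both of Capn2, while 5069 of 26835 probes were called (18.9%) and 9906 had an unadjusted p under 0.05. Both surviving arrays were below both sham arrays for 4 of 5 member probes, where 48.9% of all probes did the same, and above them for 0 of 5, where 28.1% did. The median difference of the member probes was -1.50, and that of all probes was -0.42. Calls of all probes went down to 251 and 504 without sham replicate 1 or 2 and to 411 and 361 without surviving replicate 1 or 2, and up to 8546, with 3 member probes, without either dying array. With raised signals 4706 probes and 3 member probes were called. Between dying neurons and sham, 2 of 4 member probes were called, both lower, namely Capns1 and Cast A_44_P421539, while 11236 of 25448 probes were called in either direction (44.2%). Cast A_44_P421539 was tested through the sham arrays, since dying replicate 1 did not have it well above background. The filter thus favoured a lower value in dying neurons for this probe. Both dying arrays were below both sham arrays for 4 of 4 member probes, against 45.6% of all probes, and above them for 0 of 4, against 31%. Calls went down to 3021 and 5136, with 0 member probes, without sham replicate 1 or 2. The comparisons with sham share the sham arrays, so a low value in both is not an independent observation.

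Between sham and naïve neurons, 0 of 5 member probes and 0 of 20396 probes (0%) were called by limma, and limma's unadjusted p was under 0.05 for 0 and 922. Of all probes 21 were called without either dying array. Both sham arrays were above both naïve arrays for 2 of 5 member probes, Capn2 A_44_P313283 and Cast A_44_P421539, against 38.5% of all probes, and below them for 0 of 5, against 5.02%. Cast A_44_P421539 differed by 1.22 (SE 0.91, adjusted p = 0.889) in this comparison of the control groups, which share a slide.

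**Figure D2:**
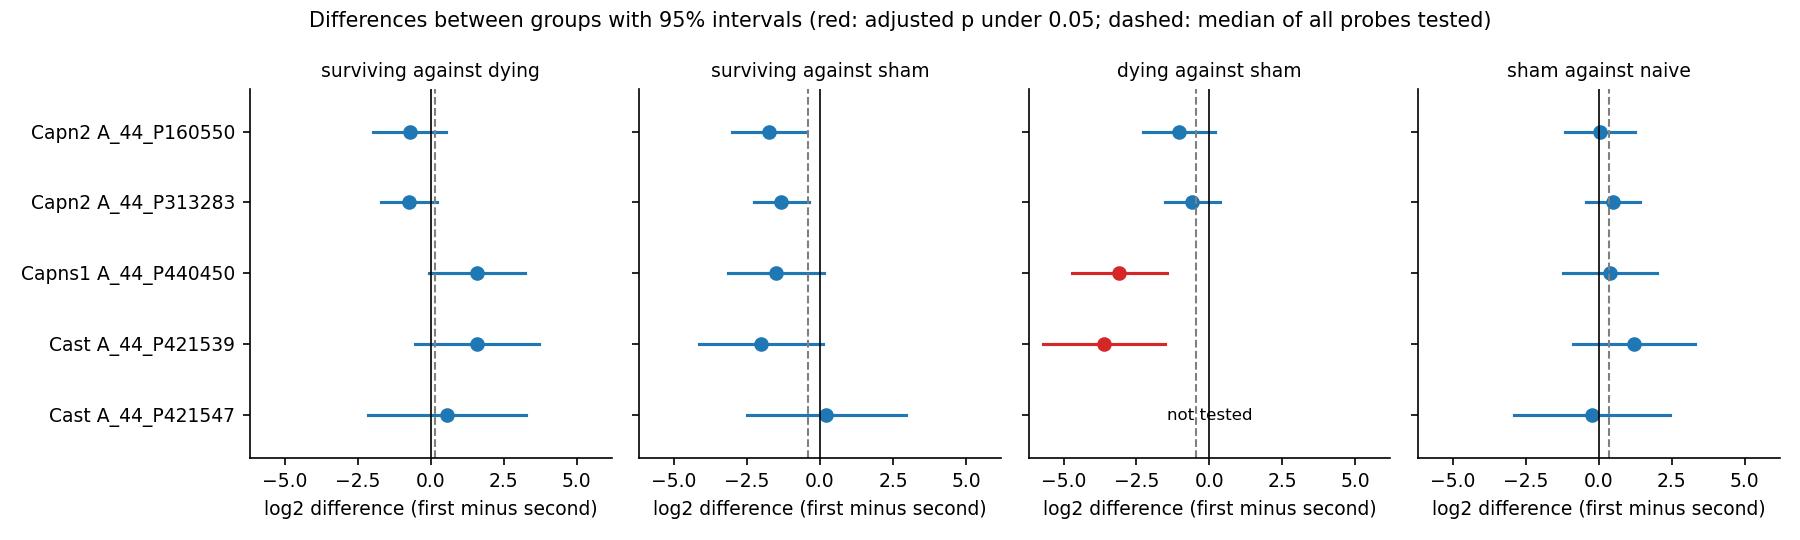
Log2 differences of the member probes that were tested in each of the 4 comparisons (points, the group named before "against" minus the other) with 95% intervals of the limma fit, in red where the adjusted p is under 0.05, and the median of all probes tested as a dashed line. Capns1 at -3.08 and Cast A_44_P421539, whose point includes an array at background and which is lower by at least 2.49 on the scale of the array median, are the red points between dying and sham neurons, and the intervals between surviving and dying neurons all include 0.

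Distances from sham depended on how the arrays were put on a common scale. Against the division by the median of all probes, the median difference from sham over the same probes shifted in surviving and dying neurons by 0.97 and 1.01 with the median of the probes measured on all 8 arrays, by 0.78 and 0.73 with the 75th percentile, by 0.55 and 0.56 with quantile normalization, by 0.88 and 0.80 with the series table of the authors, by 0.05 and 0.39 with the median of RefSeq probes and by 0.83 and -0.23 with normexp. Between surviving and dying neurons, which share a slide, the shift was -0.34 with RefSeq probes, 0.62 with normexp and within 0.1 otherwise. Between sham and naïve it ran from -0.42 to 0.40.

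Capn2 A_44_P313283 turned from -0.59 between dying neurons and sham to 0.42 with the probes measured on all 8 arrays, 0.14 with the 75th percentile, 0.66 with quantile normalization and 0.21 with the series table. In surviving neurons it was lower than sham under each scaling tried, with -0.26 as the value nearest to 0. Capn2 A_44_P160550, Capns1 and Cast A_44_P421539 were also lower than sham in surviving and dying neurons under each of them, with Capn2 A_44_P160550 at -0.03 in dying neurons on the scale of probes measured on all 8 arrays. On that scale Capns1 was at -2.08 (adjusted p = 0.0458) and Cast A_44_P421539 at -2.44 (adjusted p = 0.0692) between dying neurons and sham, where all probes had a median of 0.55. Between surviving and dying neurons Capns1 kept a positive difference under all scalings, from 1.25 to 2.24, and both Capn2 probes a negative one except with normexp, where A_44_P313283 was at 0.81 and A_44_P160550 at 0.43.

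The split of all calls moved with the scale as well. In surviving neurons against sham, 1834 higher and 3235 lower became 5118 and 1275 with the probes measured on all 8 arrays, 4130 and 1491 with the 75th percentile, 2236 and 1533 with quantile normalization and 4407 and 1443 with the series table. In dying neurons against sham, 3857 higher and 7379 lower became 8334 and 3803, 7039 and 4730, 5227 and 4050 and 7359 and 4327 in the same order, and 4970 and 5722 with RefSeq probes. With raised signals there were 682 higher and 4024 lower calls for surviving against sham and 2027 and 7751 for dying against sham. Normexp gave 0 calls in all 4 comparisons by limma, with 2500 and 2323 probes at an unadjusted p under 0.05 in these 2 comparisons, 1040 between surviving and dying neurons and 122 between sham and naïve.

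**Figure D3:**
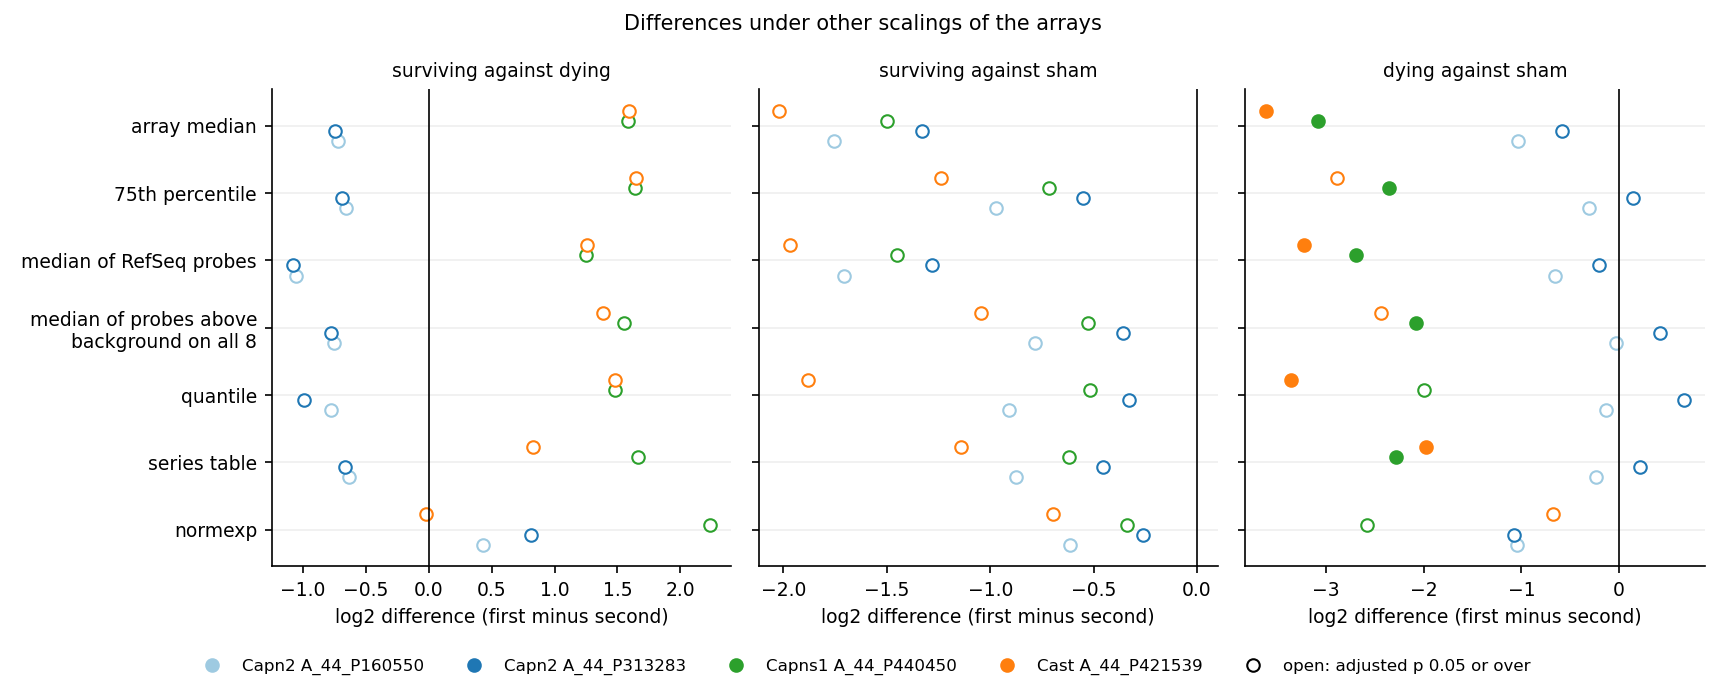
Log2 differences of the 2 Capn2 probes, Capns1 and Cast A_44_P421539 in 3 comparisons (panels) under the division by the array median and under 6 other treatments of the arrays (rows), filled where the adjusted p is under 0.05. Capn2 A_44_P313283 crosses 0 between dying neurons and sham, from -1.07 to 0.66, while Capns1 lies between -3.08 and -2.00 there and its call is lost with quantile normalization and normexp.

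Markers of the cell types that a captured pool could hold are given beside these values, each gene read from its brightest probe. Tbr1 had no probe. The other 9 markers of pyramidal neurons were well above background on each array, except Grik4 on dying replicate 1. Their summed scaled signal, led by Nrgn, came to 6159 and 9094 on naïve, 11793 and 10313 on sham, 7024 and 6749 on surviving and 3311 and 3912 on dying arrays. It was lowest on the dying arrays, as was Capns1. The median difference between surviving and dying neurons was 1.23 over the 9 genes, 0 of which were called, and it was 0.44 without dying replicate 1, 2.06 without dying replicate 2 and 0.90 to 2.32 under other treatments of the arrays. Against sham 3 were called lower in dying neurons and 1 in surviving neurons. Of all probes tested against sham, 7379 of 25448 were called lower and 3857 higher in dying neurons. In surviving neurons 3235 of 26835 were called lower and 1834 higher. The 10 microglial markers summed to 165 and 323 on naïve, 329 and 287 on sham, 335 and 355 on surviving and 2049 and 1138 on dying arrays. C1qa was the brightest on the control arrays and surviving replicate 1, and C1qb on surviving replicate 2 and in dying neurons. Itgam and Cx3cr1 were not well above background on any control array, and Cx3cr1 was not on dying replicate 1. In dying neurons against sham 5 of 9 microglial markers tested were called higher and 0 lower, and in surviving neurons 0 of 10 higher and 1 lower, which became 4 higher and 0 lower on the scale of probes measured on all 8 arrays and 1 higher and 2 lower with raised signals. Dying replicate 1, on which Capns1 was lowest, had the highest sum.

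The 7 endothelial markers summed to 48.9 and 75.0 on naïve, 84.8 and 65.6 on sham, 58.0 and 54.0 on surviving and 255 and 125 on dying arrays, led by Vwf on the injured arrays, and Tek was not well above background on any array. Of the 5 tested, 2 were called higher in dying and 1 in surviving neurons against sham, and 1 and 0 with raised signals. Cdh5 and Flt1 were not well above background on either sham array and were tested through the injured arrays. The call in surviving neurons was of Cdh5 or Flt1 and thus rested on sham at background. The 8 astrocytic markers, led by Slc1a3, summed to between 553 on dying replicate 2 and 1527 on sham replicate 1, with 3 of 7 called lower in dying and 2 of 7 in surviving neurons. The 6 markers of oligodendrocytes given here, led by Mog, summed to 183 and 272 on naïve, 239 and 305 on sham, 65.0 and 69.2 on surviving and 181 and 78.7 on dying arrays. Against sham 1 of 6 was called lower in surviving and 2 of 6 in dying neurons, and 0 of 6 in both with the 75th percentile, the probes measured on all 8 arrays, quantile normalization, normexp or the series table, or without any single sham or surviving array, and 0 of 6 in dying neurons with RefSeq probes. The 5 markers of interneurons summed to between 122 on surviving replicate 2 and 650 on dying replicate 1, with 2 of 5 called lower in dying and 1 of 5 in surviving neurons. Lower calls of astrocytic, pyramidal and interneuron markers against sham became fewer on the scale of probes measured on all 8 arrays, on which 1 interneuron marker was called higher in dying neurons. Over all other treatments and left-out arrays, calls in dying neurons against sham ran from 0 to 7 higher for microglia, 0 to 4 higher for endothelium, with 4 on that scale and 0 without sham replicate 1, and 0 to 7 lower for pyramidal neurons, and calls in surviving neurons from 0 to 4, 0 to 2 and 0 to 1 in the same order. With all arrays none of these lists had a call by limma between surviving and dying neurons, with an unadjusted p under 0.05 for 7 microglial, 3 astrocytic, 0 oligodendrocytic, 2 endothelial, 2 pyramidal and 1 interneuron markers. Of single arrays left out, only dying replicate 2 gave calls, in each list, namely 1 microglial marker higher and 4 lower in surviving neurons, 1 astrocytic higher and 1 lower, 4 pyramidal higher and 1 oligodendrocytic, 2 endothelial and 2 interneuron markers lower, of which Cx3cr1 and Grik4 were at background on the dying array left. The part of any of these cell types in the values of Capn2, Capns1, Cast and the substrate genes was not tested.

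**Figure D4:**
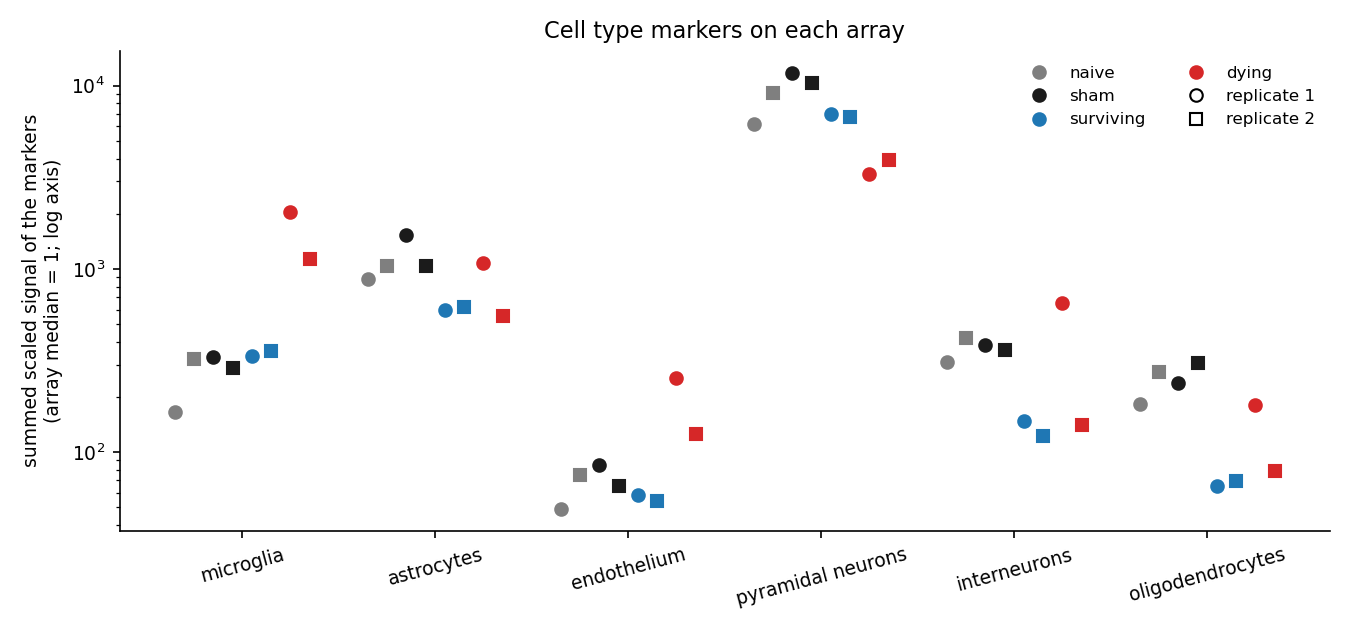
Summed scaled signal (median of the array at 1, log axis) of the markers of 6 cell types on each of the 8 arrays, coloured by group, with circles for replicate 1 and squares for replicate 2. The dying arrays are highest for microglia, at 2049 and 1138, and lowest for pyramidal neurons, at 3311 and 3912, a sum led by Nrgn. By the median of the pyramidal markers, dying replicate 2 is above the control arrays.

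Among the other members of the calpain family, 10 of 12 genes had a probe, and Capn13 and Capns2 had none by name. Only Capn10, an atypical calpain known from genetic studies of diabetes, was well above background on all 8 arrays. Its values on naïve arrays were 3.64 and 3.54, on sham arrays 4.39 and 4.25, on surviving arrays 3.79 and 3.12 and on dying arrays 3.66 and 2.71. Both injured groups lay below both sham arrays and overlapped with naïve and with each other. Its differences from sham were -0.87 (SE 0.50, adjusted p = 0.242) in surviving and -1.14 (SE 0.50, adjusted p = 0.0954) in dying neurons, and neither passed. The former was -1.20 and -0.53 without surviving replicate 1 or 2, and the latter -1.61 and -0.66 without dying replicate 1 or 2. The former turned to 0.11 with the probes measured on all 8 arrays, 0.12 with quantile normalization, 0.31 with normexp and 0.01 with the series table, while the latter was negative under each scaling, with -0.13 as the value nearest to 0.

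Capn3, the calpain best known from skeletal muscle, and Capn5, a calpain without the usual calcium-binding domain at its end, were well above background on the 4 injured arrays and on 0 of the 4 control arrays. Capn3 read -1.63 and -0.89 on surviving and 1.27 and -1.70 on dying arrays, and Capn5 read -0.61 and 0.43 on surviving and 0.53 and -0.17 on dying arrays. The groups of injured rats overlapped for both genes. On the scale of the array median the bounds against sham were at least 1.01-fold for Capn3 and at least 1.32-fold for Capn5 in dying neurons. For Capn5 in surviving neurons the bound was at least 1.10-fold. The limma adjusted p-values of 0.0774, 0.208 and 0.390, in the same order, belong to the differences with sham at its background values and not to the bounds. With normexp the differences of Capn5 were 0.15 in dying and 0.18 in surviving neurons. Without dying replicate 2 Capn3 was called higher in dying neurons than in sham (adjusted p = 0.00254), and without dying replicate 1, which had its highest value, it was not (adjusted p = 0.379). Without dying replicate 2 it was also called lower in surviving than in dying neurons (-2.52, adjusted p = 0.0202), where its difference was 0.44 without dying replicate 1. Its adjusted p was also under 0.05 with the probes measured on all 8 arrays (0.0264) and the 75th percentile (0.0365), with a range of 0.0264 to 0.994 over settings other than left-out arrays, and that of Capn5 with the series table (0.0477), with a range of 0.0477 to 0.815. All of these comparisons set sham at background values, and with raised signals the differences between dying and sham neurons were 0.01 for Capn3 (adjusted p = 0.994) and 0.41 for Capn5 (adjusted p = 0.533). A bound sets the mean of the measured group against the other group with each of its arrays at the signal of the probe or at the lowest signal marked as well above background on that array, whichever is higher.

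Capn7 was well above background on the 4 injured arrays and sham replicate 1, Capn12 on surviving replicate 2 and dying replicate 2, Capn9 only on dying replicate 1 and Capn11 only on naïve replicate 1. Capn6, Capn8 and Capn15, listed under its older symbol Solh, were well above background on no array. In none of the 4 comparisons was a gene of this list called by limma under the division by the array median, with 0, 0, 1 and 0 at an unadjusted p under 0.05, with 4 of the 10 genes tested in each comparison of injured neurons and 1 between sham and naïve. Over these 4 genes the median difference between surviving and dying neurons was 0.00, beside 0.14 over all probes, and it was 0.58 without dying replicate 1, -0.42 without dying replicate 2 and -0.34 with RefSeq probes. No median against sham is given, since Capn3 and Capn5 were at background on both sham arrays.

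Genes of neuronal proteins that calpains are known to cleave were read from a list of 17, each from its brightest probe. In surviving against dying neurons 13 were tested and 0 were called, with 3 at an unadjusted p under 0.05. A positive difference was found for 12 of the 13 and a negative one for 1, Map2, where 55.5% of all probes were positive. The median was 0.93, the value of Gria1, against 0.14 over all probes. Cdk5r1, Nefh and Gria1 were tested through the surviving arrays, since only 1 dying array had each of them well above background. The filter thus favoured a positive sign for these genes. Under the other scalings 12 or 13 of the 13 genes tested were positive. The markers of pyramidal neurons differed in the same direction, with 9 of 9 positive and a median of 1.23. Among these markers Grik4 was tested through the surviving arrays, since it was not well above background on dying replicate 1. Whether the substrate genes differ apart from these markers was not tested. Both surviving arrays were above both dying arrays for 7 of 13 substrate genes, against 30.2% of all probes. Gria1, not well above background on dying replicate 1, is among the 7. The largest of these differences among genes measured on all 4 arrays was that of Nefl, the light chain of neurofilaments, which read 7.14 and 6.25 on surviving and 1.01 and 6.01 on dying arrays. Dying replicate 1 was far below the other arrays. The difference was 3.19 (SE 1.36, adjusted p = 0.227), 0.69 without dying replicate 1 (adjusted p = 0.673) and 5.69 without dying replicate 2 (adjusted p = 0.00938). Without the latter array 3 substrate genes were called higher in surviving neurons, of which Nefh was at background on the dying array left.

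Mapt, the gene of the microtubule protein tau, read 9.36 and 9.20 on surviving and 7.07 and 8.24 on dying arrays, a difference of 1.62 (SE 0.55, adjusted p = 0.160) that was 1.04 without dying replicate 1 and passed without dying replicate 2 (2.21, adjusted p = 0.0321), and 3.01 with normexp. Gap43, a protein of growth cones, read 10.01 and 9.95 against 9.04 and 8.87, a difference of 1.02 (SE 0.42, adjusted p = 0.216) that was 2.61 with normexp. Dlg4, the scaffold PSD-95 of excitatory synapses, read -0.20 and -0.42 against -1.03 and -1.42, a difference of 0.92 (SE 0.94, adjusted p = 0.608) that was 0.58 with RefSeq probes and 0.13 with normexp. The dying arrays were the lower ones for all of these genes, and no substrate gene had both surviving arrays below both dying arrays with its brightest probe, although the dimmer Sptbn1 probe A_44_P536282 did (-0.97, adjusted p = 0.364). Sptan1 encodes αII-spectrin, whose breakdown products are a usual sign of calpain activity in tissue. It read 10.98 and 10.86 in surviving neurons and 10.08 on dying replicate 2, and had only a non-uniform spot on dying replicate 1, so that it was not compared with dying neurons.

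Against sham, 1 of 15 substrate genes tested was called higher and 3 lower in surviving neurons, and 1 of 11 higher and 4 lower in dying neurons, where 18.9% and 44.2% of all probes were called in either direction. The gene called higher in both was Slc8a3, the sodium-calcium exchanger NCX3, which was well above background on 0 of the 2 sham arrays. With raised signals neither call was made, with a difference of 0.33 (adjusted p = 0.555), a bound of 1.26-fold on the scale of the array median, in surviving neurons and of -0.30 (adjusted p = 0.562) in dying neurons, for which there is no bound. Ppp3ca, a catalytic subunit of calcineurin, and Dpysl2, the axonal protein CRMP2, were lower in both. The differences of Ppp3ca were -2.01 (SE 0.54, adjusted p = 0.0393) in surviving and -2.77 (SE 0.54, adjusted p = 0.00626) in dying neurons. In surviving neurons Nefm, the medium chain of neurofilaments, was also called lower (-1.79, adjusted p = 0.0379), and in dying neurons Mapt (-2.44) and Gap43 (-2.04). The median difference from sham was -0.27 over the 15 genes tested in surviving neurons and -2.04 over the 11 tested in dying neurons. Over all probes it was -0.42 and -0.46. These list medians rest on different sets of genes.

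These calls depended on the scale and on single arrays. Over settings other than left-out arrays the differences in dying neurons ran from -3.49 to -1.76 for Ppp3ca, -2.73 to -1.38 for Mapt and -2.61 to -1.04 for Gap43, and in surviving neurons from -2.01 to -1.04 for Ppp3ca and -1.79 to -0.76 for Nefm. In surviving neurons none of the 3 lower calls was made with the 75th percentile, the probes measured on all 8 arrays, quantile normalization, normexp or the series table, and the list median turned positive under these 5, to 0.71 on the scale of probes measured on all 8 arrays. Dpysl2 was not called with RefSeq probes either, nor with non-uniform spots kept (adjusted p = 0.0542) or without either naïve array (0.0547), and Nefm was not called with non-uniform spots kept (0.0837). In dying neurons the 4 lower calls were made under each scaling but quantile normalization, which made 3, and normexp, which made 0, and the list median was negative under all of them, with -0.18 for normexp. The higher call of Slc8a3 in dying neurons was lost without any single sham, surviving or dying array, with quantile normalization and with normexp. Without sham replicate 1 none of the substrate calls was made in either comparison, and without sham replicate 2, surviving replicate 1 or surviving replicate 2 none was made in surviving neurons. Without dying replicate 1 the list median in dying neurons was 0.04. Between sham and naïve 0 of 11 substrate genes were called, with a median of 0.52 where all probes had 0.36.

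**Figure D5:**
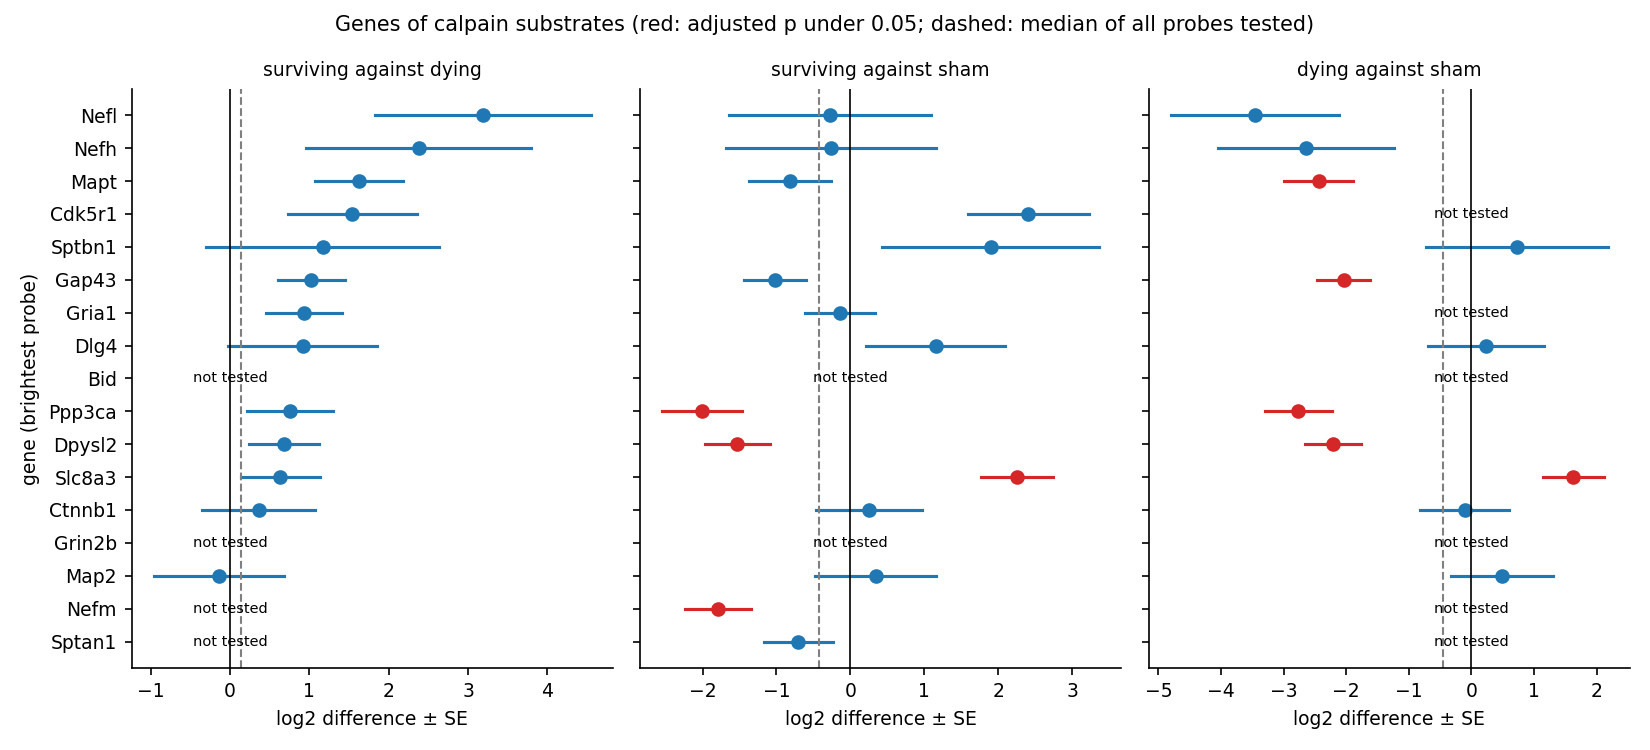
Log2 differences with SE of the brightest probe of 17 genes of calpain substrates in 3 comparisons (the group named before "against" minus the other), in red where the limma adjusted p is under 0.05, and the median of all probes tested as a dashed line. Between surviving and dying neurons 12 of the 13 genes tested lie above 0, with Nefl at 3.19, and none is red. Of these genes, Cdk5r1, Nefh and Gria1 were well above background on both surviving arrays but on only 1 dying array. The directions against sham of genes near 0 depend on the scaling, and the red points of Slc8a3 rest on sham arrays at background.

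The genes with log2 values most like those of the members over the 8 arrays were sought by Pearson's r, as a description, among 9159 named probes that each of the 8 arrays had measured. For the reference probe of Capn2 these were Arsb, a lysosomal sulfatase (r = 0.980), Vps4b, an ATPase of the endosomal sorting machinery (r = 0.969), and Scarf1, a scavenger receptor (r = 0.961). The values of Arsb were 0.91 and 0.77 on naïve, 1.37 and 1.23 on sham, -0.58 and -0.87 on surviving and 0.56 and 0.50 on dying arrays, with the lowest values in surviving neurons as for Capn2. For Capns1 they were RGD1565811, similar to a protocadherin (r = 0.998), LOC363544 (r = 0.998) and RGD1565196 (r = 0.997). RGD1565811 had 3.40 and 3.87 on naïve, 4.26 and 3.90 on sham, 3.18 and 2.40 on surviving and 0.77 and 2.30 on dying arrays, which repeats the tiers of Capns1 and its low dying replicate 1. For Cast they were Ccdc43 (r = 0.935), Mbd3 (r = 0.925) and Fcgr3 (r = 0.909), beside a reference probe that was well above background on 6 of the 8 arrays. No gene is named for Capn1, which no array measured. The 8 arrays fall into groups and slides that these genes share with the members.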

How the data were processed

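Laser-captured CA3 neurons were measured on 8 single-colour arrays of 41012 probes. The authors obtained the processed intensities with the Agilent extraction software, which, per the file headers, subtracts background and a spatial trend. The deposited files also give mean and background intensities, with marks for spots that are non-uniform or well above background. The deposited series table holds signal divided by 1 constant for each array, as found by comparing both, and served as an alternative.

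For the values here, spots marked non-uniform were dropped, the remaining spots of a probe were averaged, and each array was divided by its median. Values below a floor of 0.01 took that value before log2. One limma 3.58.1 model (R 4.3.3) of 4 groups was fitted to all arrays, with 4 residual degrees of freedom per probe before moderation. A probe was tested where either group had it well above background on both arrays, two-sided, with Benjamini-Hochberg adjustment over all probes tested and a threshold of 0.05. The fit was tested on simulated data. The number of arrays limits the precision. The p-values measure the spread between arrays, which is that between pools only if the arrays of a group hold separate pools.

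The reference probe of a gene is the brightest by its mean over the arrays. Lists of the calpain family, substrates and markers of microglia, astrocytes, oligodendrocytes, endothelium, pyramidal neurons and interneurons were matched by symbol, older symbol or RefSeq accession of assembly GRCr8, which named 10735 probes. Of the oligodendrocyte markers 1 is not reported here. Substrates named between surviving and dying neurons are up to 4 in each direction, those of largest difference among genes well above background on all 4 arrays whose groups did not overlap, and Sptan1 and those named against sham were chosen after their values were seen. Members and lists were chosen with earlier results of these data known. Alternatives were 4 other scalings or normalizations, normexp with an offset of 50, the series table, other filters, non-uniform spots kept, fewer arrays and the replicate number as a block. For the listed genes, scalings and left-out arrays were added after seeing the data, as was, for all, an alternative with each signal raised to at least the lowest one marked well above background on its array. Tables and plots were made with Python 3.11.15, pandas 2.3.3 and matplotlib 3.10.9.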

Additional observations from a re-analysis of the deposited data

How the results depend on the processing

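Of 380 differences of single member probes under alternatives, 330 kept their direction and their side of the threshold, 25 changed sign, 16 passed and 9 no longer passed, and the cause was not tested. Other filters, a fit of the compared arrays alone, the replicate block and left-out arrays of other groups leave the difference itself unchanged. Its direction was fixed in advance under those alternatives, and such differences are among the 380. Signal over background limits Capn1, measured on 0 arrays, and Cast. Probes called of all tested became 2 with the series table between surviving and dying neurons. Between surviving and sham neurons they became 0 with normexp, 3109 with probes well above background on all 4 arrays and 12131 with the 4 arrays compared alone, and member probes called became 1 without the filter, by a probe that the filter leaves out as not well above background, 1 with probes well above background on all 4 arrays and 4 with those 4 arrays alone. Between dying and sham neurons normexp gave 0 and the filter on all 4 arrays 7156, and member probes called became 1 with the 75th percentile, the median of probes measured on all 8 arrays, quantile normalization and the filter on all 4 arrays, and 0 with normexp. With signals raised to at least the lowest one well above background on each array, an alternative added after seeing the data, member probes called between surviving and sham neurons became 3. Between sham and naïve neurons 1 was called with quantile normalization and 125 with the 4 arrays alone.

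Leaving out 1 array at a time gave 0 to 5993 probes and 0 to 2 member probes called between surviving and dying neurons, 251 to 8546 and 0 to 3 between surviving and sham, 3021 to 13423 and 0 to 2 between dying and sham and 0 to 21 between sham and naïve neurons, with the lone array assumed to vary like the other groups. The differences between surviving and dying neurons then ranged from 0.61 to 2.56 for Capns1, -0.0421 to 3.23 for Cast A_44_P421539 and -1.37 to 2.49 for Cast A_44_P421547, where the highest values of both Cast probes rest on a dying array at background.

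With normexp the differences between surviving and dying neurons turned to 0.81 for Capn2 A_44_P313283, 0.43 for Capn2 A_44_P160550, -0.0214 for Cast A_44_P421539 and -0.35 for Cast A_44_P421547. Between dying and sham neurons Capn2 A_44_P313283 turned to 0.14 with the 75th percentile, 0.42 with the probes measured on all 8 arrays, 0.66 with quantile normalization and 0.21 with the series table. Between surviving and sham neurons Capn10 turned to 0.108 with the probes measured on all 8 arrays, 0.122 with quantile normalization, 0.312 with normexp and 0.0142 with the series table, alternatives added after seeing the data. With raised signals Cast A_44_P421547 turned to -0.169 between surviving and sham neurons and to 0.144 between sham and naïve neurons, and Slc8a3 to -0.300 between dying and sham neurons. Between sham and naïve neurons Capn2 A_44_P160550 turned to -0.25, -0.12, -0.38, -0.31 and -0.29 with the 75th percentile, RefSeq probes, probes measured on all 8 arrays, quantile normalization and the series table, and Capns1 to -0.0514 and -0.0729 with the probes measured on all 8 arrays and quantile normalization. With single arrays left out, Cast A_44_P421547 ranged from -0.69 to 1.11 between surviving and sham neurons and from -1.14 to 0.66 between sham and naïve neurons, where Capn2 A_44_P160550 ranged from -0.11 to 0.18. Without the filter, limma called 0 probes between surviving and dying neurons, where 6491 had an unadjusted p under 0.05.

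Surviving and dying pools can share rats, and the sources used here do not tie replicate numbers to rats. Deviations of same-numbered arrays correlated at -0.19 for surviving and dying neurons and between -0.06 and 0.07 for other pairs of groups. With the replicate number as a block, 0 probes were called between surviving and dying, 3488 between surviving and sham, 10333 between dying and sham and 0 between sham and naïve neurons, and 0, 0, 2 and 0 member probes. With the numbers of dying neurons crossed, an alternative added after seeing the data, the block gave 0 calls of all probes and 0 of member probes between surviving and dying neurons.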

Other observations

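Besides the 7 member probes, 4 probes are named as calpains only by their description and were looked at after the member values had been seen. For A_44_P1071417, a partial mRNA described as calpain II, naïve arrays stood at -1.97 and -1.62, sham arrays at -1.95 and -0.84, surviving arrays at -0.50 and -0.39 and dying arrays at -0.84 and -0.49. It was well above background on 3 of the 4 injured arrays and on 0 of the 4 control arrays. Since both sham arrays were at background, no difference from sham is given. A_44_P991335, a predicted gene similar to calpain small subunit 2, read -0.39 and -0.37 on surviving and -0.01 and 1.20 on dying arrays, a difference of -0.98 (SE 1.08, adjusted p = 0.633), and was well above background on 6 of the 8 arrays. The 2 probes described as calpain I or similar to calpain 1 were well above background on 1 and 0 arrays, beside 0 for the Capn1 probe.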
